A study of Mus musculus with 6 samples.

Results

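The hearts of 3 sham mice were profiled on 1-colour Agilent arrays, and the levels of all genes in these hearts are described here on their own, without the tail-suspended mice of the same series. A gene name was counted as detected when a probe for it was well above background on all 3 sham arrays. By this rule 20131 of 36163 gene names on the array were detected, which is 55.7%. Of the 19984 names that matched a protein-coding gene, 13216 were detected, which is 66.1%.

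The series holds 6 arrays, 3 from sham mice and 3 from mice kept in tail-suspension for 28 days. All were male C57BL/6 mice, 10 weeks old at the start by the protocol and 11 weeks old by the sample labels, while the methods of the study give another age. An age of 11 weeks does not match 28 days of suspension from 10 weeks, and the true age is not settled here. Sham mice shared the space and the feed of the suspended mice, without suspension, and no other treatment or allele is given for them. The labels call the tissue cardiac muscle and do not say whether atria and ventricles were both taken.

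The working heart is built from cardiomyocytes, which shorten when myosin thick filaments pull on actin thin filaments in response to calcium released from the sarcoplasmic reticulum. Relaxation follows when a calcium pump returns the ion to its store. Contraction never stops, so cardiomyocytes are packed with mitochondria, burn mainly fatty acids, and buffer energy as phosphocreatine. Endothelial cells, fibroblasts, mural cells, macrophages and blood share the tissue with them. In bulk RNA, fewer cells of a type and less RNA per cell cannot be told apart.

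The level of a gene is the log2 of its processed spot intensity minus the 75th percentile of its array, an intensity of 322, 320 and 302 in replicates 1, 2 and 3, so a level of 0 lies at that percentile. Where a name had several detected probes, the brightest was read. A probe's own sequence also sets its signal, so levels give a position among the detected genes and no fold between genes. All 3 arrays lay on 1 slide, and no spot was saturated. Between 51.0% and 51.7% of probes were well above background, and so were 1, 1 and 3 of 308 negative control spots. On the replicate 3 array, 36 spots were more than 3 log2 units above both other arrays, against 7 on replicate 1 and 14 on replicate 2. Of these 36, 21 lay together in rows 120 to 141 and columns 132 to 134 of an array of 384 rows and 164 columns. Their cause was not tested. Spots with an outlier flag, 12 of the 21, were left out. The block of these rows and columns held 63 non-control spots. None of the 16 detected genes read from an unflagged spot of the block had an SD above 0.5. That count covers every unflagged spot there and is no separate check of the bright ones.

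The 4 heart markers stood near the top of the range. Myh6, the main myosin heavy chain of the adult mouse ventricle, had levels of 9.64, 9.55 and 9.39 in replicates 1, 2 and 3. Actc1, cardiac alpha-actin, had 10.04, 10.03 and 9.99. Tnnt2, cardiac troponin T, had 9.39, 9.35 and 9.26. The level of each of these 3 genes exceeded that of 99.8% of detected genes. Nppa, atrial natriuretic peptide, had levels of 6.61, 7.64 and 7.25 (7.17 ± 0.52, SD, n = 3), at percentile 97.3, and spread more between the hearts than the other 3 markers.

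Levels of detected genes ran from -4.30 to 10.13 with a median of 0.37. The bottom 10% ended at -3.18 and the top 10% began at 4.86. Only 271 names, 1.35% of those detected, exceeded a level of 8, whereas 9008 (44.7%) lay between -4 and 0. The 10 brightest names carried 2.91%, 2.87% and 2.96% of the summed intensity of detected genes in replicates 1, 2 and 3, and the 100 brightest carried 18.1%, 17.7% and 18.0%. Detection and level differed by the kind of name. Detected protein-coding genes had a median of 1.00. Probes for long intergenic regions were detected for 2352 of 4607 regions (51.1%) with a median of -1.93. Named long non-coding RNA genes were detected in 389 of 1345 cases (28.9%). Pseudogene names were detected in 281 of 501 cases (56.1%), and 93 of these 281 stood in the top 10%.

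**Figure D1:**
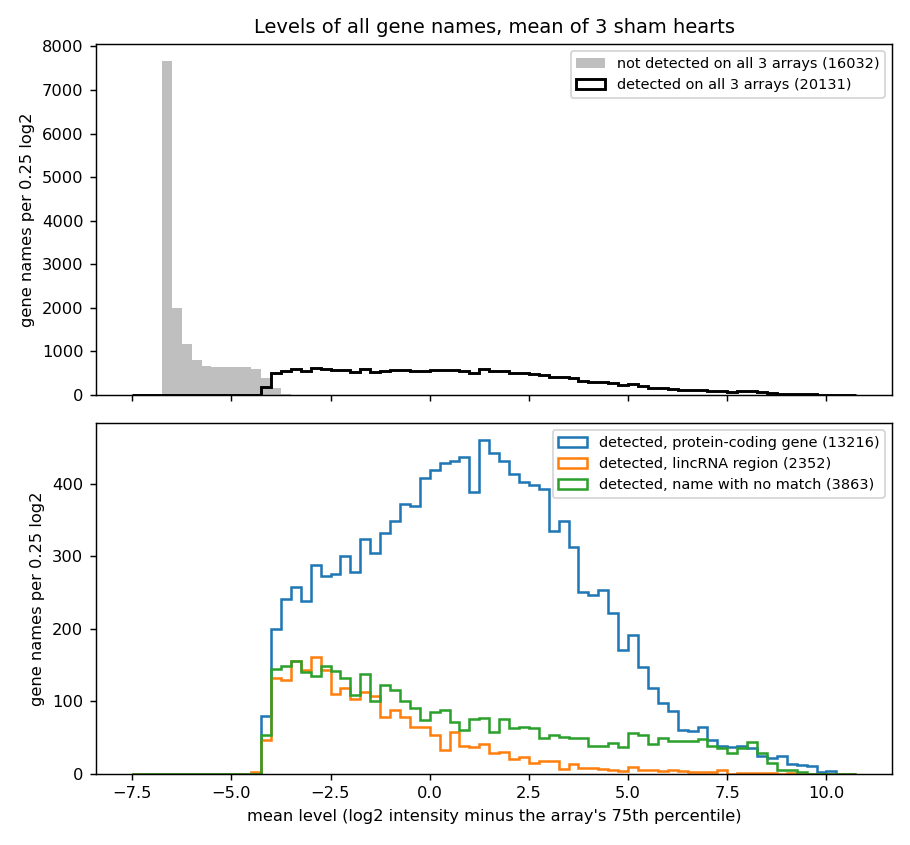
The top panel counts gene names per 0.25 log2 step of mean level over the 3 sham hearts, with detected names as a black line and all others in grey, and the bottom panel splits detected names by kind. Detected names spread from -4.30 to 10.13, and protein-coding genes peak further right than long intergenic regions, whose median was -1.93.

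The brightest names fell into contraction, the respiratory chain, fuel use and a set of names with no known role in muscle. Among the 25 brightest were 6 genes from the contraction lists, 3 from the respiratory chain and ATP synthase families, 5 from the fuel lists and 1 red cell gene. Cox6a2, the muscle form of a cytochrome c oxidase subunit, was the brightest with levels of 10.15, 10.12 and 10.12. Aldoa, the glycolytic aldolase of muscle, followed with 10.16, 10.12 and 10.00. Their 3 hearts lay close together. Myl3 and Myl2, the essential and regulatory light chains of ventricular myosin, had 10.09, 9.88 and 10.09 and 9.66, 9.68 and 9.61. Tpm1, alpha-tropomyosin, had 9.81 in every heart. Slc25a4, which exchanges ADP and ATP across the inner mitochondrial membrane, had 9.76, 9.68 and 9.73, and Mb, the oxygen store myoglobin, had 9.60, 9.60 and 9.43. Each of these stayed within a narrow range between hearts, and the order of such close neighbours has no meaning beyond their spread. Mdh2 of the citric acid cycle, Gapdh of glycolysis and the mitochondrial protein gene Chchd10 completed the energy genes, with means of 9.52, 9.35 and 9.57.

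**Figure D2:**
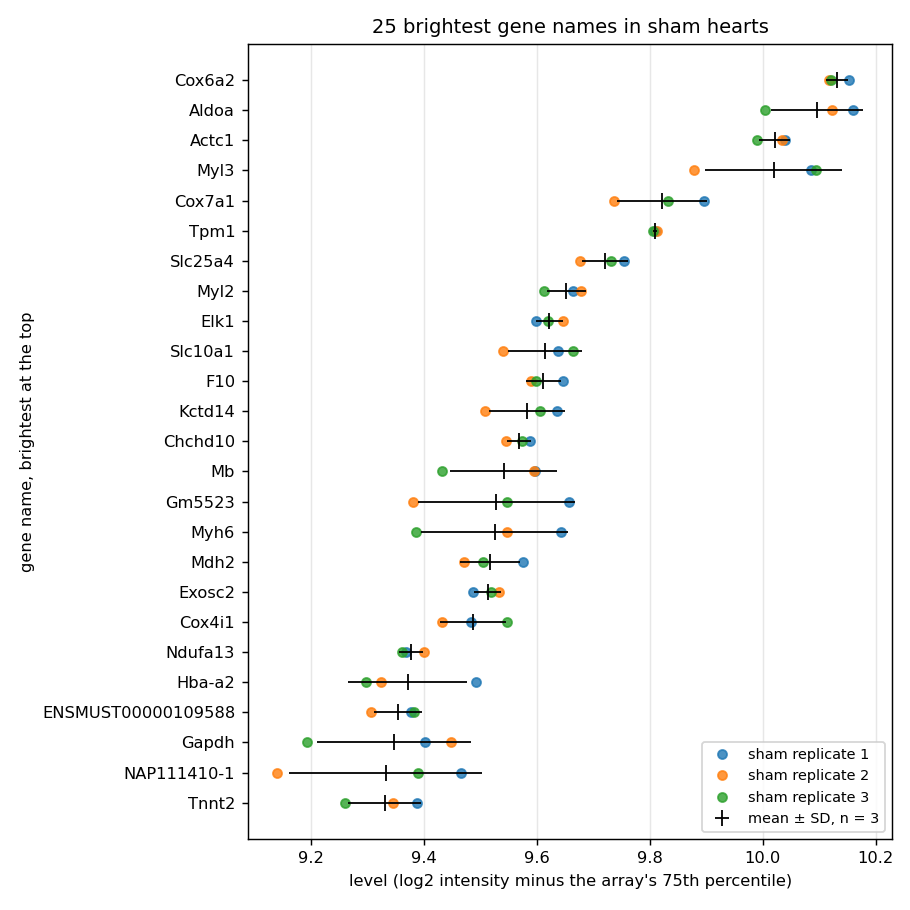
Each row is 1 of the 25 brightest gene names in sham hearts, with a coloured point for each replicate on the horizontal axis (log2 intensity minus the 75th percentile of the array) and a black mark for the mean ± SD (n = 3). The points of a gene lie close together, from Cox6a2 at 10.13 down to Tnnt2 at 9.33.

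The other 10 of the 25 names were in none of these lists or families. Besides Chchd10 they hold Cox4i1, a cytochrome c oxidase subunit whose name the family pattern missed, with levels of 9.48, 9.43 and 9.55. They also include Elk1, a transcription factor of the ETS family, Slc10a1, the bile acid uptake carrier of liver, F10, coagulation factor X, and Kctd14. The levels of Elk1 were 9.60, 9.65 and 9.62, and those of F10 were 9.65, 9.59 and 9.60. Other probes for the same genes gave no such signal. The other Elk1 probe read -3.85 ± 0.44 (SD, n = 3), and no other probe of F10, Slc10a1 or Kctd14 rose well above background in a sham heart. The bright Slc10a1 probe shared no run of 20 bases with a probe of another gene on another chromosome. The sequences of the bright Elk1, F10 and Kctd14 probes, as deposited in the array files with mm9 coordinates, are shown with those of 4 further bright names because they share sequence across chromosomes. Of the 7 probes, 4 hold the same run of 30 bases and the others hold part of it. Capitals mark the longest stretch equal to the run, and each line gives the probe's 5′ to 3′ letters over the run alone.

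Elk1, chrX:20510521-20510580, minus strand: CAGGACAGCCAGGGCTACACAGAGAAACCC
F10, chr8:13056119-13056178, plus strand: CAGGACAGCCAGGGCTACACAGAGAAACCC
Med16, chr10:79357669-79357728, minus strand: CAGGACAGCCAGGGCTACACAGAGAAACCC
Cxcl11, chr5:92788567-92788626, minus strand: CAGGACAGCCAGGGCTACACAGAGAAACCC
Ndor1, chr2:25100377-25100436, minus strand: gAGGACAGCCAGGGCTACACAGAGAcaccc
Kctd14, chr7:104606896-104606955, plus strand: CAGGACAGCCAGGGCTAtacaaaaaa
Ttc38, chr15:85688096-85688155, plus strand: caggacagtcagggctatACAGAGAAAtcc

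This run belongs to the B1 short interspersed repeat, an element spread in very many copies through the mouse genome and carried in many transcripts. The run was taken from bright probes, so the brightness of the probes that hold it is no finding. On the whole array 6 probes held at least 20 bases of it, 5 of them printed here. A wider set of 98 detected probes, linked to these by shared runs of 20 bases, had levels from -3.42 to 9.62 with a median of 6.77, so not every probe in it was bright. Med16, a Mediator subunit, had levels of 9.04, 9.06 and 9.09. The brightest probe of Cxcl11, a chemokine, had 8.73, 8.70 and 8.48, while its other probe read 3.03 ± 0.11. What gave the signal of these probes was not tested. Sharing of sequence was common at the top of the range. A probe that held 20 bases in a row from a probe of another gene on another chromosome read 34 of the 100 brightest names, 31.4% of the top 10%, 2.49% of the middle 20% and 1.76% of the bottom 10% of detected names. Within protein-coding genes these shares were 22.7%, 14.0%, 1.27% and 1.54%. Names such as Gm5523 and ENSMUST00000109588 shared runs with Gapdh, so their levels (9.53 and 9.36) cannot be told apart from that of Gapdh. The probes of Cox6a2, Aldoa, Actc1, Myl3, Cox7a1, Tpm1, Slc25a4, Myl2, Mb and Myh6 shared no such run. Pairs of probes on the same chromosome were not compared, so sharing between them would not show.

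Genes of the contractile apparatus were detected almost without exception, and most of the filament genes stood in the top 10%. Of 12 thick filament genes 11 were detected, 9 of them in the top 10%, with a median level of 7.84. All 10 thin filament genes were detected (median 6.33), and all 16 genes of the Z-disc and M-band (median 6.10, 11 in the top 10%). These medians stand beside 1.00 for all detected protein-coding genes. Mybpc3, cardiac myosin-binding protein C, had levels of 9.25, 9.27 and 9.27. Tnni3, cardiac troponin I, had 8.65, 8.64 and 8.52. Both were among the steadiest of the filament genes. Ttn, the giant spring titin, had 7.57, 7.61 and 7.75, and Tcap, the cap protein that binds titin in the Z-disc, had 9.09, 8.72 and 9.52. Cryab and Csrp3, a small heat shock protein and a Z-disc sensor of stretch, had means of 9.24 ± 0.11 and 8.04 ± 0.01. Neb and Nebl, the nebulin genes, stood low at -2.12 ± 0.13 and -2.22 ± 0.18. Myl7, the atrial regulatory light chain, was well above background on 1 array alone.

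Calcium handling genes spread more widely along the range. Of 19 such genes 18 were detected, with a median of 4.65. Hrc, a calcium-binding protein of the sarcoplasmic reticulum, had levels of 8.83, 8.77 and 8.71. Atp2a2, the calcium pump SERCA2, had 8.42, 8.28 and 8.24, and its inhibitor Pln had 7.53, 7.58 and 7.40. These store and pump genes all lay in the top 10%, as did Casq2 (6.45 ± 0.18) and the release channel Ryr2 (5.41 ± 0.11). Slc8a1, the sodium-calcium exchanger, had a mean of 0.66 ± 0.11, and Cacna1c, the pore of the L-type calcium channel, had -1.64 ± 0.06. Casq1, the skeletal form of calsequestrin, had -1.34 ± 0.36. The junctions between cardiomyocytes were likewise uneven. Desmoplakin (Dsp, 6.10 ± 0.06), N-cadherin (Cdh2, 6.09 ± 0.16) and plakophilin 2 (Pkp2, 5.45 ± 0.07) were in the top 10%, connexin 43 (Gja1) had 2.83 ± 0.03, and plakoglobin (Jup) had -1.15 ± 0.05.

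The respiratory chain was bright throughout. Of 36 complex I subunits 35 were detected, all in the top 10%, with a median of 7.97. The other, Ndufa12, had levels of 8.33 and 8.21 in replicates 1 and 3 and an outlier flag in replicate 2. All 9 complex III subunits (median 8.09) and all 17 names of the ATP synthase pattern (median 8.36) were detected, and so were 13 of 15 cytochrome c oxidase names (median 8.20). Muscle forms of this last complex were among its brightest members. Cox7a1 had levels of 9.90, 9.74 and 9.83, and Cox8b had a mean of 9.11 ± 0.05, below Cox4i1, which is not in the counts (9.49 ± 0.06). Cox5a was the only detected member of the pattern with an SD above 0.5. Its levels were 9.31, 7.99 and 9.24, and replicate 2 stood below both others. Cox6b2, known from testis, had 0.13.

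Genes encoded in the mitochondrial genome were bright too, apart from 1. The probe of COX1 is shown beside that of ND6, since they read opposite strands of the circular mitochondrial DNA (mm9, 5′ to 3′).

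COX1, chrM:6650-6709, plus strand: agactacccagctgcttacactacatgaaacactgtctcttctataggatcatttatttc
ND6, chrM:13552-13611, minus strand: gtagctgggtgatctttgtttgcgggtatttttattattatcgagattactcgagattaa

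COX1 had levels of 9.40, 9.10 and 9.35, and CYTB had 9.18, 9.18 and 9.21. The complex I subunits ND2, ND4, ND5 and ND1, also read on the plus strand, had means of 8.68 ± 0.02, 7.97 ± 0.03, 7.71 ± 0.06 and 7.59 ± 0.06. ND6, which is transcribed from the other strand, had -2.03, -2.21 and -1.69. It was the only mitochondrial gene named here outside the top 10%, each gene being read by its own probe.

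Fuel genes were also bright. All 23 genes of fatty acid uptake and oxidation were detected, 18 in the top 10%, with a median of 6.06. Acaa2, the last enzyme of the beta-oxidation spiral, had levels of 9.30, 9.27 and 9.23, and Fabp3, the fatty acid carrier of cardiac cytosol, had a mean of 8.91 ± 0.10. Lpl, the lipase that frees fatty acids in the capillary bed, had 8.89, 8.66 and 8.48. Cpt1b, the muscle gate for entry of fatty acids into mitochondria, had a mean of 5.89 ± 0.09, and Ucp3 had 0.29 ± 0.24. All 22 glycolytic genes (median 6.93) and all 19 citric acid cycle genes (median 7.34) were detected. The insulin-sensitive glucose carrier Slc2a4 had levels of 7.52, 7.28 and 7.28, and the basal carrier Slc2a1 had 1.57, 1.25 and 1.54. Cs, citrate synthase, had a mean of 9.02 ± 0.09. Creatine kinase is read here as its mitochondrial form Ckmt2 (9.12 ± 0.11), its muscle form Ckm (6.39 ± 0.15) and its brain form Ckb (2.10 ± 0.03). Oxct1, which lets the heart burn ketone bodies, had 7.91 ± 0.14. Regulators of fuel genes were also detected, with Esrra at 5.75 ± 0.08, Ppara at 4.16 ± 0.10 and Ppargc1a at 3.96 ± 0.21.

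Of 82 cytosolic ribosomal protein names 80 were detected, 75 in the top 10%, with a median level of 7.24. Their median SD between hearts was 0.040, against 0.125 for all detected genes. Rplp0 had 8.63, 8.61 and 8.65. Mitochondrial ribosomal proteins were detected in 75 of 76 cases with a lower median of 4.61, and proteasome names in 47 of 49 (median 4.24). Common reference genes spanned a wide range, from Gapdh and Ppia (7.80 ± 0.02) through Actb (7.72 ± 0.22) and Hprt (4.35 ± 0.08) to Tbp (-0.36 ± 0.10).

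**Figure D3:**
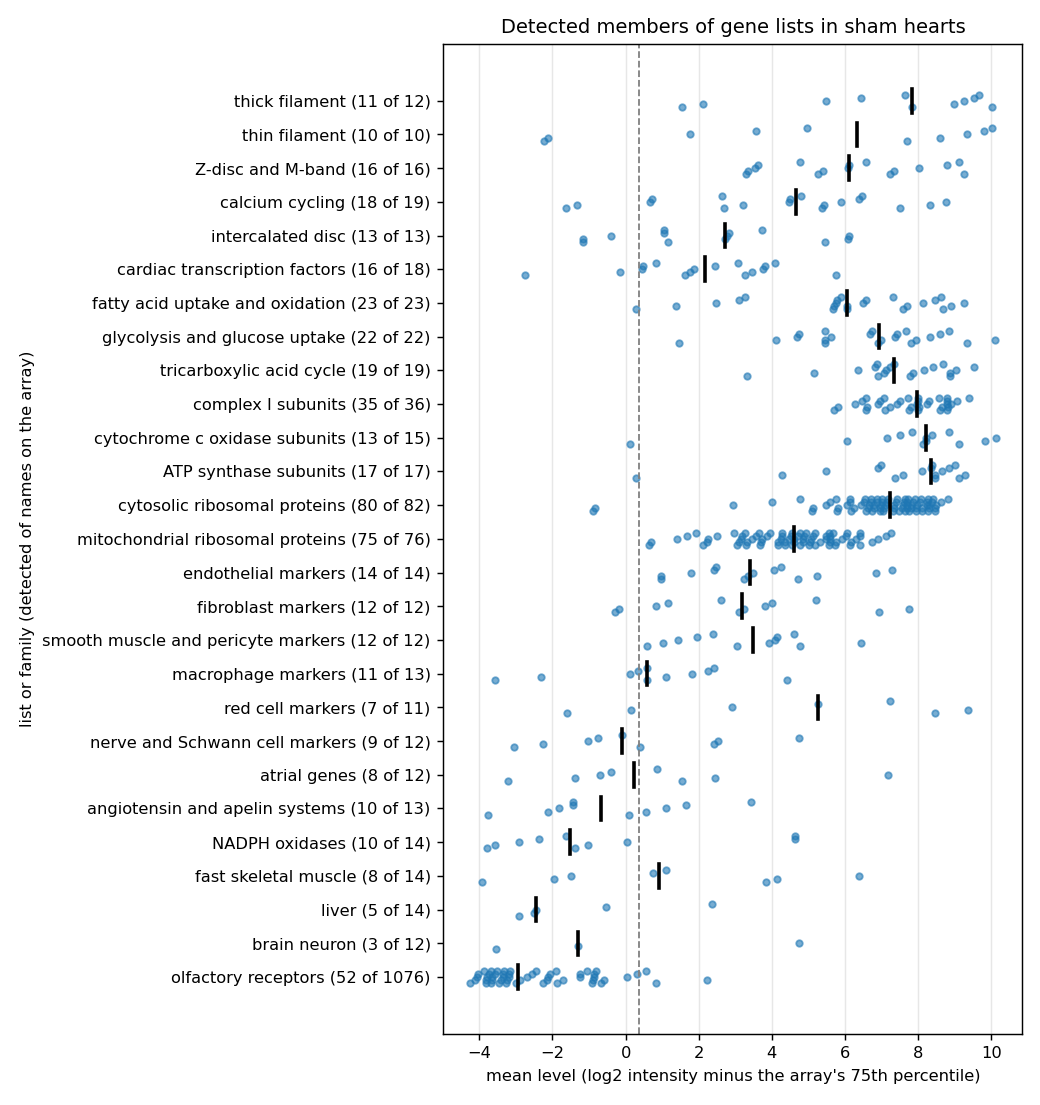
Each point is the mean level over the 3 sham hearts of 1 detected member of a gene list or family, the black bar is the median of that list, and the dashed line is the median of all detected genes (0.37). Contractile, respiratory chain and ribosomal genes lie far to the right, and macrophage, oxidase and other-tissue genes lie near or left of the line.

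Markers of the other cells of the heart were detected at lower levels. All 14 endothelial markers were detected (median 3.41), led by the lipid carrier Fabp4 (7.30 ± 0.09) and including Kdr, the main receptor for VEGF (4.25 ± 0.01), and Cdh5, VE-cadherin (3.48 ± 0.19). All 12 fibroblast markers were detected (median 3.17). Dcn, decorin, had levels of 7.84, 7.68 and 7.70, whereas the fibroblast transcription factor Tcf21 had -0.54, -0.18 and -0.20. All 12 smooth muscle and pericyte markers were detected (median 3.49), with Acta2 at 4.62 ± 0.37 and Rgs5 at 4.07 ± 0.03. Of 13 macrophage markers 11 were detected (median 0.60), among them Csf1r (4.40 ± 0.21) and C1qa (2.26 ± 0.26). Lymphoid and granulocyte markers stood lower where detected, with no median above -1.59. T and NK cell markers were detected in 7 of 13 cases (53.8%), B and plasma cell markers in 5 of 9 (55.6%) and neutrophil markers in 4 of 9 (44.4%). The share for all protein-coding names was 66.1%, and with lists this short the difference from it was not tested. Of 10 adipocyte markers only Cidea was detected (5.10 ± 0.16), Adipoq was partly detected and Lep was not detected.

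The brightest red cell genes were globins. Hba-a2, an alpha-globin, had levels of 9.49, 9.33 and 9.30, and Hbb-b1, a beta-globin, had 7.74, 7.06 and 6.87. Alas2, the haem enzyme of red cell precursors, had 3.50, 2.63 and 2.63. Each was highest in replicate 1. Of 11 red cell markers 7 were detected, and Rhag and Klf1 were not. How much blood each sample held was not tested.

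Several atrial and conduction genes were low or absent, but not all. Of 12 atrial genes 8 were detected (median 0.22), led by Nppa (7.17 ± 0.52) and Tbx5, and Bmp10 was not. That share, 66.7%, is near the 66.1% of all protein-coding names. Sln, sarcolipin, was detected in part, with levels of -4.81, -6.70 and -1.87. Myl4, the atrial essential light chain, had 1.09, 1.62 and 1.92. Of 11 pacemaker and conduction genes 6 were detected (54.5%, beside 66.1% of all protein-coding names). Hcn2 was the brightest at 5.11 ± 0.05, followed by Tbx3 and Gjc1. Hcn4, Shox2 and Isl1, genes of the sinus node, were not detected. All 10 ventricular genes were detected. The chambers in the samples are not given, so the share of atrial tissue was not tested.

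Cardiac transcription factors occupied the upper middle of the range. Of 18 factors 16 were detected (median 2.16), with Nkx2-5 at 4.21, 4.14 and 3.93, Gata4 at 3.83, 3.91 and 3.69, and Tbx5 at 2.61, 2.44 and 2.30. Hand1, which marks the left ventricle of the embryo, was not detected. The genes of signals and receptors stood lower. Of 13 genes of the angiotensin and apelin systems 10 were detected (76.9%, beside 66.1% of all protein-coding names), with a median of -0.67. Agtr1a, the main angiotensin II receptor, had 3.53, 3.24 and 3.50. The other receptor genes Agtr1b and Agtr2 were not detected. Apln, the peptide apelin, had 1.66, 1.50 and 1.79, and its receptor Aplnr had 1.32, 0.84 and 1.13. The precursor Agt and the converting enzyme Ace had means of -2.12 ± 0.24 and 0.08 ± 0.05. Adrb1, the cardiac beta-adrenergic receptor, had a mean of 1.52 ± 0.11.

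NADPH oxidase genes, which make superoxide, were detected in 10 of 14 cases with a median of -1.51. That share, 71.4%, is near the 66.1% of all protein-coding names. The membrane subunit Cyba and the small GTPase Rac1 stood out at 4.62 ± 0.09 and 4.63 ± 0.05 by their brighter probes. Their other probes read 1.77 ± 0.12 and 3.75 ± 0.05. Cybb had -2.80, -2.98 and -2.97, Ncf1, which encodes p47phox, had -2.40, -2.92 and -1.81, and Nox4 had -3.67, -3.58 and -3.45. These catalytic and organiser genes were near the lower end of what the arrays could measure. All 21 antioxidant genes were detected (median 4.46), with Sod2, the superoxide dismutase of mitochondria, at 8.44 ± 0.13 and Sod1, its cytosolic counterpart, at 7.43 ± 0.06. Trim63, which encodes the ubiquitin ligase MuRF1, had 5.13, 5.15 and 5.16 by its brighter probe, a spread of 0.015 (SD, n = 3). The other Trim63 probe read 3.24 ± 0.14. Fbxo32, the ligase atrogin-1, had 1.45 ± 0.12.

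The middle 20% of detected genes (percentiles 40 to 60) held 4026 names, of which 74.2% were protein-coding and 9.07% were long intergenic regions. No cytosolic ribosomal protein lay there, and only 2 names of the respiratory chain families did, Atp5s and Cox6b2. Contraction genes of the middle 20% were regulators and membrane proteins rather than filaments. They included Mef2a (0.44 ± 0.17), Mef2c (-0.14 ± 0.11) and Mef2d (0.83 ± 0.31), which drive muscle gene transcription, and Jph2 (0.73 ± 0.13), which tethers the sarcoplasmic reticulum to the cell membrane.

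Large families known from other tissues were mostly not detected, and families of regulators varied. Olfactory receptors, the sensors of the nose, were detected in 52 of 1076 cases (4.83%), vomeronasal receptors in 18 of 262 and taste receptors in 5 of 38. Beta-defensins were detected in 3 of 43 cases, type I interferons in 2 of 13 and Hox genes in 6 of 39. The share for all protein-coding names, 66.1%, exceeded each of these. Wnt ligands (6 of 19) and interleukins (12 of 38) were also below it. Fox factors were detected in 19 of 44 cases (median 0.48) and Sox factors in 12 of 19 (median -0.50). Zinc finger genes named Zfp exceeded the share for all protein-coding names, with 292 of 336 detected (86.9%) at a median of -0.37. Heat shock proteins were detected in 66 of 72 cases (median 3.02), led by Hspb6, a small heat shock protein of muscle, at 8.31 ± 0.09. Among potassium channels 42 of 92 were detected, with Kcnk3 at 5.07 ± 0.20 and Kcnj5, which carries the acetylcholine-activated current, at 4.41 ± 0.04. Families were taken by name pattern, so a few members may be misplaced.

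**Figure D4:**
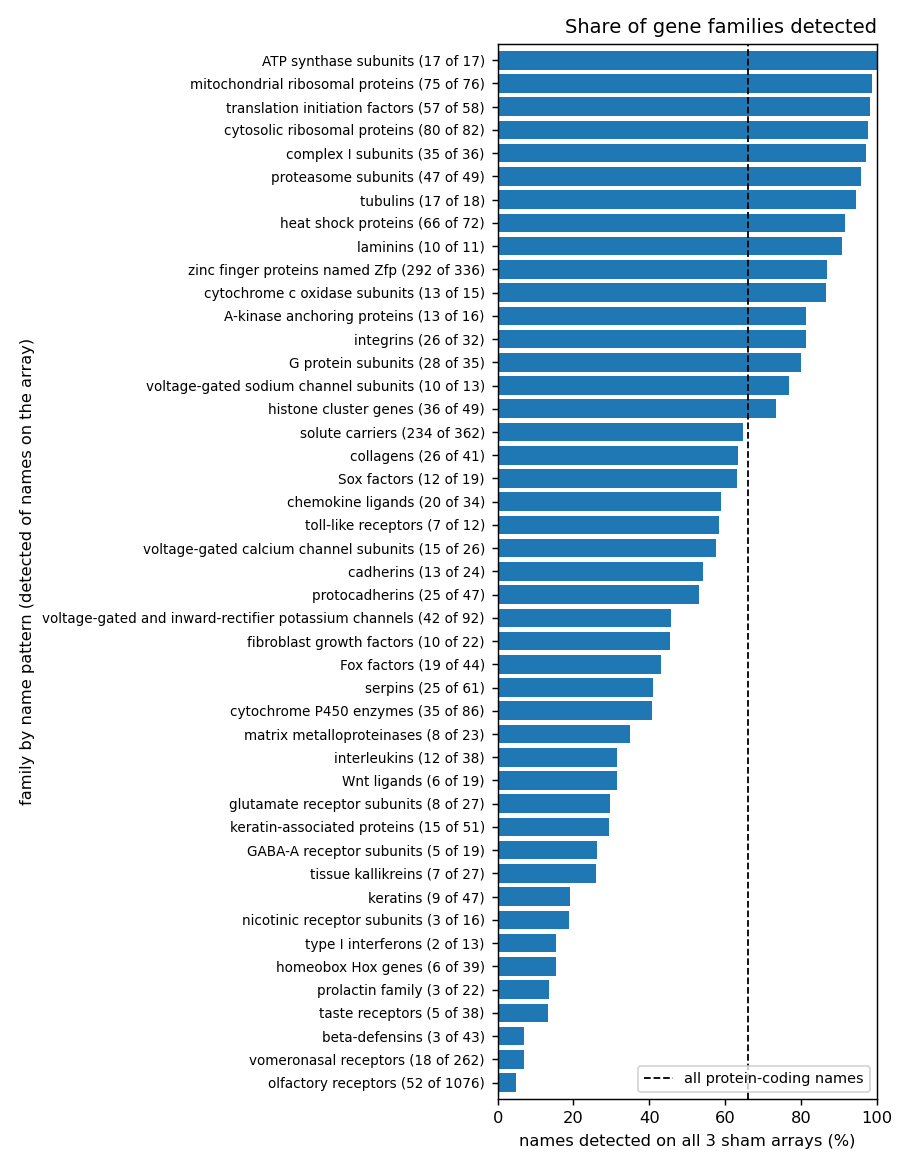
Bars give the percentage of names in each family that were detected on all 3 sham arrays, with the counts beside the family name, and the dashed line marks all protein-coding names (66.1%). ATP synthase, mitochondrial ribosomal proteins, translation initiation factors, cytosolic ribosomal proteins and complex I have the highest shares, and olfactory receptors, vomeronasal receptors and beta-defensins the lowest.

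Of 142 names from 13 lists of other tissues, 36 were detected (25.4%), 12 in part, and only 11 had a level above 0. The share for all protein-coding names was 66.1%. None of the lung, gut and retina genes was detected. Alb and Apoa1 of liver, Gad1 of inhibitory neurons and Myh1, Myh2, Myh4 and Myod1 of skeletal muscle were not detected either. Of the 14 liver names 5 were detected, the brightest being Apoa2 with levels of 2.41, 2.22 and 2.47. Of the 36 detected names, 8 were from the list of fast skeletal muscle and 3 from that of slow and developmental muscle. Tnnt1, slow skeletal troponin T, had levels of 4.48, 4.36 and 4.40, and Atp2a1, the skeletal calcium pump, had 4.34, 4.29 and 3.78. Myh8, a perinatal myosin, had 7.89, 7.82 and 7.81 by its brighter probe, but its other probe read 2.21 ± 0.21. Snap25, a synaptic protein, had 4.57, 4.66 and 4.99. Its probe belonged to a set of 32 detected probes linked by shared runs of bases, which also held probes of Fgf23 and Krt222. Such links can pass through other probes, so a run shared directly with Fgf23 or Krt222 is not shown.

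Probes for 1 gene often disagreed. For 4977 genes with several detected probes, the range between these probes had a median of 1.90 log2 units, against a median SD between hearts of 0.130 for a single probe. Among the genes of the lists, Tpm1 ranged most, from 9.81 down to -1.71 over 5 probes. Prdx6, a peroxidase, and Flt1, a VEGF receptor, followed with ranges of 10.14 and 8.92. Myh6 was read by a bright and a dimmer probe. Its bright probe, the one behind the marker level, lies at chr14:55560774-55560833 on the minus strand of mm9, and its other probe lies upstream at chr14:55584132-55584191 with levels of 5.35, 5.15 and 5.49. The upstream probe, which did not give the marker level, is shown to document the dimmer reading of Myh6, beside the probe that gave the level of Tnnt2.

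Myh6, upstream probe, minus strand: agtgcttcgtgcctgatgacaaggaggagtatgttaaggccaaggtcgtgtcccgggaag
Tnnt2, chr1:137747976-137748288, plus strand: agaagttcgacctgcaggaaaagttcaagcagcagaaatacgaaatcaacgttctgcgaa

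Promoter letters were counted for detected genes and for those not detected. In the 300 bases around the RefSeq start (250 before and 50 after, assembly GRCm38.p6), detected protein-coding genes held a median of 20 CG dinucleotides and those not detected held 4. The top 10% (19) and the middle 20% (20) were alike in this count, and the bottom 10% had a median of 10.25. Filament genes were poor in CG, with a median of 4 over 19 genes, while complex I genes had 19 over 31. The CArG box, the element read by serum response factor, was sought in the 250 bases before the start, on either strand. It was present in 5 of 19 filament genes (26.3%), 1.55% of detected protein-coding genes and 1.50% of those not detected. The share was 1.55% of all protein-coding genes with a promoter and, counted by promoter and not by gene, 1.47% of all promoters in the table. The 5 were Acta1, Actc1, Myl3, Myom1 and Nebl, and Myl7 held one as well. The 100 bases before the start of 3 marker or filament genes are printed with the CArG box, or for Nppa the letters TATAAA, in capitals.

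Actc1, chr2:114052876-114052975, minus strand: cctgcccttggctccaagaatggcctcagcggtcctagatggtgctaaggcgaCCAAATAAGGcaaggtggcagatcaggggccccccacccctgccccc
Myl3, chr9:110763578-110763677, plus strand: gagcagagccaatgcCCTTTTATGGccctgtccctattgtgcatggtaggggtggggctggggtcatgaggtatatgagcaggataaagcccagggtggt
Nppa, chr4:148000622-148000721, plus strand: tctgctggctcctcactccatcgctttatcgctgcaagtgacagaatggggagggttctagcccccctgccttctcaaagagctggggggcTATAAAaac

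TATAAA on the gene's strand within 40 to 20 bases before the start was found in 1.96% of detected protein-coding genes and 5.30% of those not detected. The share was 3.02% of all protein-coding genes with a promoter. Counted by promoter and not by gene, it was 1.99% of all promoters in the table. The Nppa match begins at position -9 from the RefSeq start and so lies outside that window. A match is a description of letters and not a site of binding.

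Most genes differed little between the 3 hearts. The median SD over hearts was 0.125 log2 units and 429 detected genes (2.13%) had an SD above 0.5. Spread depended on level, with a median SD of 0.217 in the bottom 10% and 0.0801 in the highest. The 265 detected probes printed in 10 spots per array had a median SD of 0.0487 between single spots of an array. Their median SD between hearts was 0.107, taken over averages of the spots, so these SDs are not like measures. The spread between spots leaves out labelling and hybridisation, which differ between arrays along with the hearts and cannot be told apart from them.

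Clock genes stood out among the lists. Of 12 detected clock genes 7 had an SD above 0.5, and their median SD was 0.590. Dbp, an output factor of the clock, had levels of 4.30, 3.32 and 6.22. Per1 had 3.03, 3.26 and 4.62, and Nr1d1, which encodes REV-ERB alpha, had 0.46, 0.38 and 2.08. All 3 were highest in replicate 3. Arntl, which encodes BMAL1 and peaks in the opposite phase to Dbp, had 1.28, 2.01 and 0.30 and was lowest there. Nfil3, a repressor at the sites that Dbp activates, had 2.78, 3.15 and 1.37. The hour at which each heart was taken is not given, and its part was not tested.

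Some genes of myosin, actin and the natriuretic peptides also differed between hearts, and Myh7 and Acta1 are described partly because of their large spread. Myh7, the slow myosin heavy chain, had levels of 6.85, 8.61 and 8.08, and Acta1, skeletal alpha-actin, had 4.09, 6.06 and 4.70. Nppa and Nppb (5.84, 7.03 and 5.95) were also highest in replicate 2. All 4 genes were lowest in replicate 1. The bright Myh6 probe was highest there (9.64, 9.55 and 9.39). Its dimmer probe was not, with 5.35, 5.15 and 5.49 in replicates 1, 2 and 3. Nmrk2, listed as Itgb1bp3, a muscle kinase of nicotinamide riboside that was picked after its values were seen, had 0.22, 1.98 and 1.79.

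The largest SDs of all were found in other genes. The 20 most variable names included 4 long intergenic regions and several entries with no gene match. Erdr1 had 3.95, -0.10 and 4.15, and a transcript entry named TC1700876 had 3.72, -0.95 and 3.82, so replicate 2 was low in both. Cyp26b1, which degrades retinoic acid, had 5.80, 2.33 and 1.48, and Cyp1a1, a target of the aryl hydrocarbon receptor, had 0.20, -2.24 and -2.98. Replicate 1 was the highest for both of these cytochrome P450 genes. The complement gene C7 had -3.59, -3.94 and -1.75. The growth factor Nrg1 had -1.62, 0.47 and -0.42, the ubiquitin ligase gene Lonrf3 had -0.38, -0.32 and -2.26, and the potassium channel Kcna1 had -1.74, 0.19 and -0.14. No replicate was the extreme one in all of these genes.

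Other shifts ran through whole groups. Collagens were lowest in replicate 1 in 24 of 26 detected cases, against 6110 of all 20131 detected genes. Col3a1 had 3.55, 3.91 and 4.55, and Col1a1 had 2.81, 3.02 and 3.50. Macrophage markers were highest in replicate 1 in 10 of 11 cases, red cell markers in 6 of 7 and glycolytic genes in 19 of 22, against 7132 of all detected genes. Mitochondrial ribosomal proteins were lowest in replicate 3 in 66 of 75 cases and citric acid cycle genes in 18 of 19, against 7785 of all detected genes. Smooth muscle and pericyte markers were highest there in 10 of 12, against 7141 of all detected genes, though the median level of these markers was 3.39, 3.49 and 3.47 in replicates 1, 2 and 3. The shifts differed in size. The median difference from a gene's own mean in replicate 1 was 0.52 log2 units for red cell markers, 0.20 for macrophage markers, 0.09 for glycolytic genes and -0.23 for collagens. In replicate 3 it was -0.10 for mitochondrial ribosomal proteins, -0.08 for citric acid cycle genes and 0.09 for smooth muscle and pericyte markers, and genes of a group are not independent replicates.

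**Figure D5:**
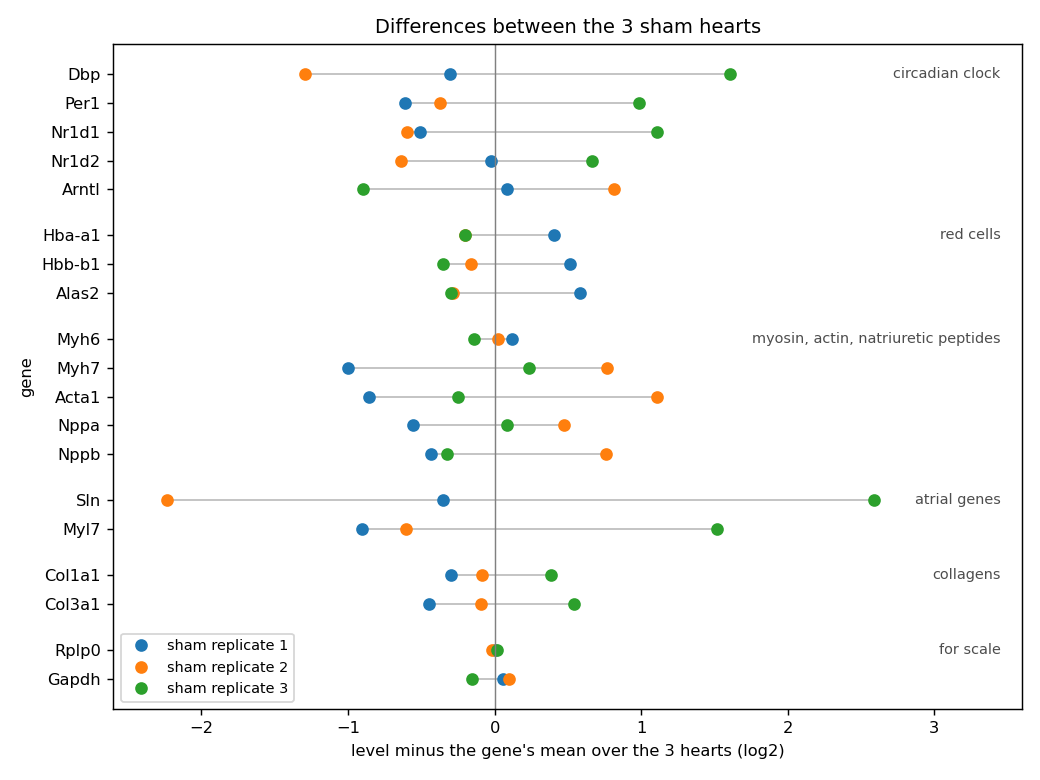
Each row is a gene and each point 1 sham heart, placed by its level minus the gene's mean over the 3 hearts (log2). Dbp spreads from 3.32 to 6.22 with replicate 3 highest, red cell genes are highest in replicate 1, and Rplp0 and Gapdh show the scale of steady genes, while the points of Sln and Myl7 below background on 2 arrays are bounds.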

How the data were processed

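RNA of 3 sham hearts was labelled with Cy3 and hybridised to 1-colour Agilent arrays by the authors, who extracted spots with Agilent Feature Extraction 10.7.1.1 and deposited the processed intensity of each spot, which is background-corrected. A deposited table holds log2 values for these arrays too. Its columns correlated with the log2 intensity at 0.999, and the sorted columns of all 6 arrays differed by at most 0.000857, so the table is quantile normalized or close to it. No further processing is given in the sources used here.

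Control spots and outlier-flagged spots were left out, spots of a probe were averaged on the log2 scale, and the 75th percentile of each array's non-control spots was subtracted. Detection of a probe required the well-above-background flag on 50% or more of its spots. The median level has an SD of 0.0061 over arrays. A gene name was read from its detected probe with the highest mean. Values are given as mean ± SD over 3 mice, and with 1 group no test was made. The number of arrays limits the precision. Of 36163 names, 21911 matched a symbol in the RefSeq table of GRCm38.p6, which gave gene classes and promoters. Coordinates of probes are those of the files (mm9).

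The lists (51), the families (48, by name pattern) and the set of names were chosen with earlier results of these data known. Named are 4 markers, the 25 brightest names, the 20 detected names with the largest SD, genes whose products the study measured, members of the lists and families, and the 5 list genes with the largest range between detected probes. Nmrk2, Nfil3, Med16, Ndor1, Ttc38, Fgf23 and Krt222 were named after their values were seen. Sequence sharing between probes, promoter letters and the bright patch of replicate 3 were also examined after the levels were seen. Alternatives were normexp correction (limma 3.58.1, R 4.3.3, offset 50), quantile normalization, another percentile, the authors' log2 values, outlier spots kept, looser and stricter detection, other probe rules and each array left out. The steps were tested on simulated data. Python 3.11.15, numpy 2.4.6, pandas 2.3.3 and matplotlib 3.10.9 were used.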

Additional observations from a re-analysis of the deposited data

How the results depend on the processing

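The count of detected names ranged from 20127 to 22030 over the alternatives that changed it. With 1 array left out it was 20332 to 20415. Of the 100 brightest names, 95 to 100 stayed among the 100 brightest under every scaling, detection rule and left-out array, but only 75 did when a gene was read from its median detected probe and 73 when it was read from its dimmest, so the top of the order rests on the choice of probe. The count of genes with an SD above 0.5 was less stable. It was 429 as reported, 121 after normexp correction, 261 in the authors' values and 1362 when detection on fewer arrays was accepted. The cause of the first 2 changes was not tested, and the last tests more dim genes. With 1 array left out it ran from 429 to 759, the highest without replicate 2. Of 41 named genes followed, 37 moved by more than their SD under normexp. All 41 did under the percentile over detected probes, which lowers every level (median -1.93). The detection rules leave the level of a probe unchanged, so the lack of movement under them is no test. Positions were kept better, with a Spearman correlation of levels of at least 0.999 for these scalings. No paired analysis was possible because only sham arrays were used and no test was made. Levels near -4 rest on spots close to background, where the median SD of 0.217 limits what can be told apart.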
